A study of Mus musculus with 6 samples.

Results

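Type I interferon-stimulated genes are genes that cells switch on after interferon alpha or beta binds its receptor. They were examined as a list of 43 named mouse genes, comprising 4 IRF and STAT transcription factors, 4 sensors of foreign or misplaced nucleic acid and 35 effectors. A member was taken into the tests if its mean over the 6 libraries was at least 1 CPM (the reads of a gene after scaling every library to a common total). This left 36 of the 43, among 10511 genes at or above that level in all. The libraries held RNA from cytotoxic CD8 T lymphocytes isolated from the spleens of wild-type female C57BL/6 mice. The 3 young libraries came from mice of 6 weeks and the 3 aged libraries from mice of around 65 weeks, and no transgene or drug is named for either group. All cells were stimulated for 2 days by plate-bound antibodies, 3 µg/ml against the T cell receptor beta chain and 1 µg/ml against CD28, in medium with 10 ng/ml of interleukin 2. They then grew for 5 days in interleukin 2 alone, and RNA was taken after 7 days in all. The stated protocol names no added interferon. The labels call the libraries biological replicates without saying whether each came from its own mouse, so p-values measure the spread between these libraries, which may be technical, and age cannot be told apart from any difference in how the 2 groups of cultures were handled.

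Type I interferons bind a receptor made of IFNAR1 and IFNAR2, whose kinases TYK2 and JAK1 phosphorylate STAT proteins, STAT2 among them. These join IRF9 to form a complex called ISGF3, which binds a promoter sequence known as the interferon-stimulated response element (ISRE). The induced proteins include more sensors and signalling factors, so the response feeds itself, and effectors that block viral entry, replication or translation. In CD8 T cells, type I interferon is known to act as a further signal beside the antigen receptor and costimulation, and interferon-stimulated genes also have a low tonic expression without infection. Interferon gamma, which activated CD8 T cells make themselves, acts through its own receptor and induces many of the same genes.

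The libraries held 1952552 to 2785915 reads, the fewest in Aged replicate 1. A single read equals 0.359 to 0.512 CPM, and a gene without a read could still have a level of up to 1.08 to 1.54 CPM (3 reads, counting error alone). The 7 CD8 T cell markers (Cd8a, Cd8b1, Cd3d, Cd3e, Cd3g, Lck and Cd2) were all present, with summed levels of 2580 to 2698 CPM in young and 2040 to 2201 CPM in aged libraries, and 5 of the 7 were called lower in aged cells. Of the markers of other cells, 6 of 8 for B cells, 7 of 10 for macrophages (Lyz2 and Adgre1 among them) and 3 of 6 for conventional dendritic cells had no read in any library, as did Siglech and Klk1 of 7 for plasmacytoid dendritic cells. The summed levels were 3.59 to 9.99 CPM in young and 0 to 2.82 CPM in aged libraries for B cells. They were 11.1 to 17.4 and 8.19 to 18.8 CPM for macrophages, and 27.3 to 44.3 and 12.7 to 18.9 CPM for conventional dendritic cells. For plasmacytoid dendritic cells, a list that shares Bst2 with the members, they were 54.3 to 65.0 and 37.6 to 51.2 CPM. Each of these lists had 1 marker called lower in aged cells and 0 called higher. In the same order, these were Cd79b (6.34 against 0.982 CPM), Cd68 (14.3 against 8.28 CPM), Xcr1 (28.8 against 9.33 CPM) and Tcf4 (35.3 against 22.5 CPM). They were 19.6 to 23.7 and 11.3 to 18.9 CPM for the 4 CD4 T cell markers, 7.39 to 15.8 and 0.767 to 2.56 CPM for erythroid markers (Hbb-bs without a read), and 5695 to 5981 and 6863 to 7850 CPM for the 4 NK cell markers, of which 2, Eomes and Gzma, were called higher in aged cells and are also expressed by CD8 T cells. The 5 neutrophil markers summed to 82.6 to 102 CPM in young and 55.1 to 129 CPM in aged libraries. Nearly all of that was Ly6g, at 94.6 ± 10.5 against 89.7 ± 36.9 CPM (SD, n = 3 per group), and S100a8 and Elane had no read. The part of these marker differences in the results on members was not tested.

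The tested members were lower in aged than in young CD8 T cells wherever a difference was called. With limma on log2(CPM + 1) and a Benjamini-Hochberg adjusted p under 0.05 over all 10511 genes, 17 of the 36 tested members fell in aged cells and 0 rose, against 12.5% of all tested genes called lower and 16.2% called higher (1313 and 1701 genes, and 1549 and 1432 with TMM scaling). The list was chosen with earlier results of these data known, so the comparison with all genes is a description and not a test. At an unadjusted p under 0.05 there were 22 members lower and 0 higher, and edgeR, DESeq2 and limma-voom also called 0 members higher. The log2 fold change, aged minus young, was below 0 for 33 of the 36 (46.8% of all tested genes), with a median of -0.48 and a range of -1.65 to 0.37, beside a median of 0.03 over all tested genes. All 3 aged libraries lay below all 3 young libraries for 21 members (18.3% of all tested genes), and above them for 1, Ifi35 (22.5% of all tested genes). In this bulk RNA, fewer cells that express a gene and less RNA per cell cannot be told apart. These counts leave out the 7 members under the level of 1 CPM, and of the tested ones Cmpk2 reached that level only in the young mean and Usp18 only in the aged mean.

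The difference between the groups is given here by library. The deviations of a member sum to 0 over the 6 libraries by construction, so they restate that difference. The same summary over all tested genes was not made. Measured as the median over members of the deviation from each member's own mean on log2(CPM + 1), Young replicates 1 to 3 stood at 0.24, 0.22 and 0.26 and Aged replicates 1 to 3 at -0.18, -0.24 and -0.27. In the young libraries 30, 30 and 32 of the 36 tested members were above their own mean, and in the aged libraries 8, 5 and 7. Summed over the 36 members, the level was 3144, 3118 and 3215 CPM in the young and 2394, 2258 and 2197 CPM in the aged libraries. No library stood apart from its group in this summary.

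**Figure D1:**
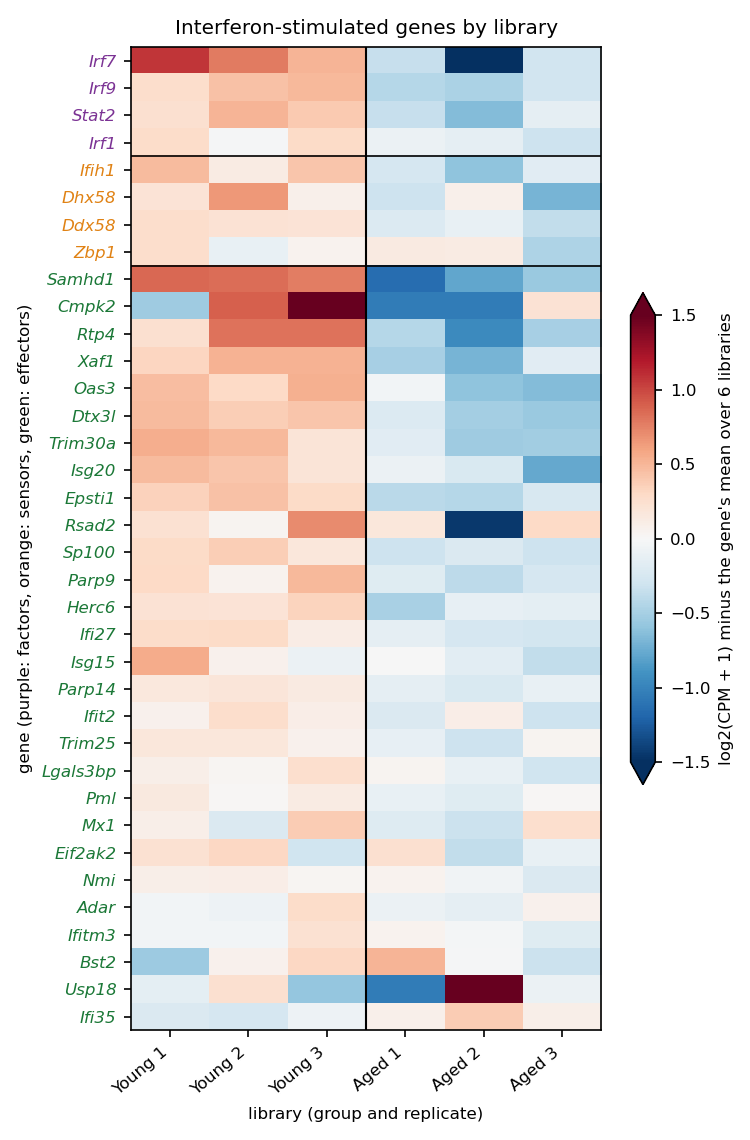
Each row is a tested member and each column a library, and the color gives the deviation of log2(CPM + 1) from the member's mean over the 6 libraries. The median deviation was 0.22 to 0.26 in the young and -0.27 to -0.18 in the aged libraries.

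The 4 transcription factors on the list all fell in aged cells (12.5% of all tested genes were called lower), with a median log2 fold change of -0.78. Irf7, which carries the positive feedback of interferon production and is itself an interferon target, stood at 11.3, 8.97 and 7.30 CPM in the young and 3.59, 0.767 and 3.76 CPM in the aged libraries. Its young libraries were all above its aged ones, although at 70 reads over the young and 17 over the aged libraries it was a thinly counted gene. The means were 9.19 ± 2.01 against 2.71 ± 1.68 CPM (SD, n = 3 per group), 3.40-fold apart, with a log2 fold change of -1.57 ± 0.37 SE (limma, adjusted p = 0.00345). The Irf7 gene (chr7:141262706-141266481, minus strand, GRCm38) overlaps exons of Phrf1 at its 3' end on the other strand, and Phrf1 stood at 102 ± 12.5 against 117 ± 3.63 CPM (SD, n = 3 per group), a log2 difference of 0.21 in the other direction (limma adjusted p = 0.123).

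Irf9, the DNA-binding subunit of ISGF3, was measured at 49.6, 56.0 and 57.6 CPM in the young and 30.2, 29.1 and 33.4 CPM in the aged libraries. The groups lay far apart relative to their spread, at 54.4 ± 4.27 against 30.9 ± 2.23 CPM (SD, n = 3 per group), 1.76-fold lower in aged cells (log2 fold change -0.79 ± 0.13 SE, limma adjusted p = 0.000122). Exons of Irf9 (chr14:55603571-55610030, plus strand) overlap those of Rnf31 on the same strand, though not over the last 300 bases of Irf9. Rnf31 was itself low, at 14.9 ± 2.51 against 11.3 ± 1.71 CPM (SD, n = 3 per group). Reads in the shared stretch could belong to either gene. The last 300 bases of Irf9 transcripts share a run of at least 50 bases with Gm38002, so some reads may be of uncertain origin.

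Stat2, the subunit of ISGF3 that is particular to type I and type III interferon signalling, was at 14.3, 17.6 and 16.1 CPM in the young and 9.22, 7.28 and 10.8 CPM in the aged libraries. Every young library was above every aged library, and the means differed 1.76-fold (log2 fold change -0.76 ± 0.23 SE, limma adjusted p = 0.0158). This call did not hold with DESeq2 (adjusted p = 0.0626), without Young replicate 2 (limma adjusted p = 0.0718) or without Aged replicate 2 (limma adjusted p = 0.0648), while the direction stayed.

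Irf1, which is induced by both interferon types and by T cell activation and binds similar promoter sequences, was the most highly counted of the factors, at 143, 116 and 143 CPM in the young and 110.1, 107 and 94.1 CPM in the aged libraries. The lowest young value, in Young replicate 2, lay just above the highest aged value, in Aged replicate 1. The change was the smallest of the factors, 1.29-fold in CPM (log2 fold change -0.36 ± 0.10 SE, limma adjusted p = 0.00976), and without Young replicate 1 the limma adjusted p was 0.0638 with a log2 fold change of -0.31.

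**Figure D2:**
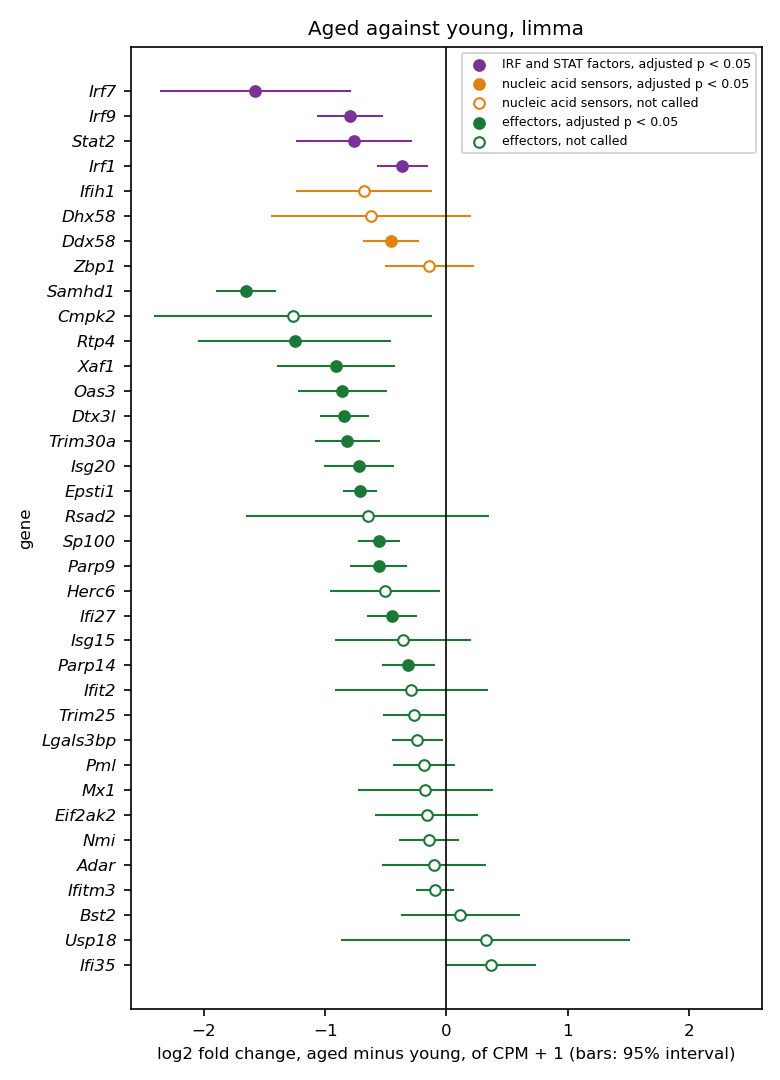
The 36 tested members are listed by class, with the log2 fold change (aged minus young, on CPM + 1) on the x axis and its 95% interval as a bar. Filled points passed an adjusted p of 0.05 in limma. All filled points lie left of 0, from -1.65 for Samhd1 to -0.31 for Parp14, and the 3 points right of 0 (Bst2, Usp18 and Ifi35) are open.

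The promoters of the members were searched for the ISRE, since that is where ISGF3 and IRF proteins bind. RefSeq promoter windows (GRCm38.p6, 250 bases before to 50 bases after the annotated start) were matched by symbol for 34 of the 43 members. The entries not matched were Dhx58, Zbp1, Oas2, Mx1, Usp18, Parp9, Parp14, Rtp4 and Ifi27. The ISRE letters GAAANNGAAA, or TTTCNNTTTC for the other strand, were found in 13 of the 34 members, against 3.99% of all 27025 symbols with windows of that length. The gamma-activated site bound by STAT dimers (GAS, TTCNNNGAA, which reads the same on both strands) was found in 10 of the 34, against 9.55% of all those symbols. In Bst2 and in Ifitm3 the GAS match overlaps an ISRE match.

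The stretches below show the ISRE in 3 members that fell (Stat2, Oas3 and Trim30a), 2 that were not called (Isg15 and Bst2) and 1 under the level tested (Ifit1), and the GAS of Irf1. They are printed 5' to 3' along the gene's strand from the part of the window before the start, with the matching letters in capitals. Isg15 and Bst2 hold several overlapping copies of the ISRE letters, and Ifit1 holds a pair of separate copies.
Stat2, ISRE, chr10:128270248-128270325 (+ strand): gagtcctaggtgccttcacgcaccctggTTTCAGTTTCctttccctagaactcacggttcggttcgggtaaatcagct
Oas3, ISRE, chr5:120777685-120777774 (- strand): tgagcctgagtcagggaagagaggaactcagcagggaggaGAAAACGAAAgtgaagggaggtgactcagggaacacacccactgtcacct
Trim30a, ISRE, chr7:104465194-104465269 (- strand): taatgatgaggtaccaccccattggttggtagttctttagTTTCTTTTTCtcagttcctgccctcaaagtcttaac
Isg15, ISRE, chr4:156200847-156200936 (- strand): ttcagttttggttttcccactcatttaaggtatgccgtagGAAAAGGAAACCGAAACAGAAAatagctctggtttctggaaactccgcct
Bst2, ISRE, chr8:71537553-71537642 (- strand): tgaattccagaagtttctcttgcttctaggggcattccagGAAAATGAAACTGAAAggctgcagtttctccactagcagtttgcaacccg
Ifit1, ISRE, chr19:34640745-34640834 (+ strand): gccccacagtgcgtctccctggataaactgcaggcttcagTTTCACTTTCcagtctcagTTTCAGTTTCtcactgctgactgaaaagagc
Irf1, GAS, chr11:53769884-53769972 (+ strand): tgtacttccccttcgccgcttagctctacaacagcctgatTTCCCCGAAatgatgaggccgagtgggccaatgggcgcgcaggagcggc

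Of 28 tested members with a window, 10 held the ISRE, of which 4 fell (Stat2, Ddx58, Oas3 and Trim30a), with a median log2 fold change of -0.55. Among the 18 without it, 9 fell and the median was -0.53. The GAS was held by 9 tested members, of which 3 fell, with a median of -0.16, while of the 19 without it 10 fell, with a median of -0.68. Outside the members, 311 tested genes held the ISRE, of which 21.5% were called lower and 16.7% higher, and their median log2 fold change was -0.03. The 8015 without it had 11.8% lower and 16.2% higher, with a median of 0.04. The median level was 27.8 CPM with the ISRE and 22.8 CPM without it. These shares are a description, and a match of letters is not a binding site.

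Of the 4 sensors, Ddx58 fell and the other 3 were not called (12.5% of all tested genes were called lower). Ddx58 encodes RIG-I, which detects uncapped viral RNA, and it was at 74.8, 72.1 and 71.9 CPM in the young and 53.8, 57.5 and 48.0 CPM in the aged libraries. The groups were apart with little spread, at 72.9 ± 1.61 against 53.1 ± 4.79 CPM (SD, n = 3 per group), 1.37-fold lower in aged cells (log2 fold change -0.45 ± 0.11 SE, limma adjusted p = 0.00399). The last 300 bases of its transcripts share a run of at least 50 bases with other genes, so some of its reads may be of uncertain origin.

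Ifih1, which encodes MDA5, the sensor of long double-stranded RNA, was counted at 10.9, 8.26 and 10.4 CPM in the young and 6.15, 4.60 and 6.59 CPM in the aged libraries. All aged values lay below all young ones, but the adjusted p was 0.0655 in limma (log2 fold change -0.68 ± 0.27 SE), and it was 0.0447 to 0.0495 with TMM or RLE scaling, edgeR or limma-voom. Dhx58, which encodes the regulator LGP2, was near the floor at 2.61, 3.95 and 2.31 CPM in the young and 1.54, 2.30 and 0.941 CPM in the aged libraries. Its groups did not overlap either, at 23 against 11 reads in all, and the interval of its log2 fold change ran from -1.45 to 0.20 (limma adjusted p = 0.266). Zbp1, a sensor of Z-form nucleic acid that can start necroptosis, was at 36.5, 28 and 31.5 CPM in the young and 33.3, 33.0 and 21.6 CPM in the aged libraries. Those groups overlapped, with 2 aged libraries in the range of the young ones, and the log2 fold change interval was -0.51 to 0.23 (limma adjusted p = 0.602).

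Among the 35 effectors, 28 were tested, 12 fell, 0 rose and 16 were not called, with a median log2 fold change of -0.40. Over all tested genes, 12.5% were called lower and 16.2% higher. The effectors that act on viral RNA, DNA or nucleotides ranged from Samhd1, with the lowest log2 fold change of the members on log2(CPM + 1), to several members near the floor. Samhd1 encodes a triphosphatase that depletes the nucleotides needed to copy retroviral RNA into DNA, and it stood at 198, 195 and 186 CPM in the young and 48.7, 62.5 and 73.4 CPM in the aged libraries. Every aged library was far below every young one. The means were 193 ± 6.56 against 61.5 ± 12.4 CPM (SD, n = 3 per group), a 3.14-fold difference, with a log2 fold change of -1.65 ± 0.12 SE and a 95% interval of -1.90 to -1.41 (limma, adjusted p = 9.55e-09). The gene (chr2:157097533-157135265, minus strand) overlaps no other annotated exon, and its call held under all 17 alternatives tried.

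Isg20, an exonuclease that degrades viral RNA, was measured at 130.0, 125 and 107 CPM in the young and 88.1, 79.7 and 54.6 CPM in the aged libraries. The groups did not overlap, though Aged replicate 3 was well below the other aged libraries, and the means differed 1.63-fold (log2 fold change -0.72 ± 0.14 SE, limma adjusted p = 0.000502). Oas3, a synthetase of the 2-5A messenger that activates RNase L, was at 38.7, 34.5 and 40.7 CPM in the young and 27.1, 18.0 and 17.4 CPM in the aged libraries. It too was lower in every aged library, 1.82-fold in the means (log2 fold change -0.86 ± 0.18 SE, limma adjusted p = 0.000974). The last 300 bases of its transcripts share a run of at least 50 bases with Cryzl2 and Gm38123.

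Oas3 was the one 2-5A synthetase family member with enough reads to test. Oas2 had no read in any library, and Oas1a, which shares its 3' end with Oas1g, had 0 reads in the young and 6 in the aged libraries. Oasl1 had 1 against 2 reads, and Oasl2, just under the level tested at a mean of 0.892 CPM, had 12 against 1. For these genes, no difference can be given at this depth.

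The IFIT proteins, which bind viral RNA and block its translation, were thinly counted. Ifit1 (mean 0.801 CPM) had 10 reads in the young and 2 in the aged libraries, and Ifit3 had 4 and 3. Ifit2 was at 5.22, 6.10 and 5.38 CPM in the young and 4.10, 5.37 and 3.76 CPM in the aged libraries, with overlapping groups and a log2 fold change interval of -0.92 to 0.34 (limma adjusted p = 0.526). Mx1, a GTPase that blocks influenza virus replication, overlapped as well, at 9.67 ± 2.19 against 8.47 ± 2.08 CPM (SD, n = 3 per group) and with an interval of -0.73 to 0.38 (limma adjusted p = 0.681). C57BL/6 mice are known to carry a defective Mx1 allele.

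The remaining nucleic acid effectors were not called. Eif2ak2 encodes PKR, which halts translation on sensing double-stranded RNA, and its groups overlapped at 23.8 ± 5.36 against 21.1 ± 4.68 CPM (SD, n = 3 per group, limma adjusted p = 0.599). Adar, an RNA editing enzyme that keeps cellular RNA from being sensed, was at 15.5 ± 2.25 against 14.3 ± 1.12 CPM (SD, n = 3 per group, limma adjusted p = 0.757), and its log2 fold change interval was -0.53 to 0.32. Rsad2, which encodes viperin, had 19 reads against 9 and overlapping groups, and Cmpk2, a nucleotide kinase beside it in the genome, had 22 against 3.

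Cmpk2 was at 0.435, 2.87 and 5.0 CPM in the young and 0, 0 and 1.41 CPM in the aged libraries, so its young libraries varied widely and overlapped the aged ones. Its limma adjusted p was 0.0931, and it was 0.0208 without Young replicate 1 and 0.0388 without Aged replicate 3. Around the level of 1 CPM, the members just inside were Usp18 (1.5 CPM), Cmpk2 (1.62 CPM) and Rsad2 (1.97 CPM), and those just outside Oasl2 and Ifit1.

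In the ISG15 and ubiquitin system, 1 of 5 members fell, beside 12.5% of all tested genes. ISG15 is a ubiquitin-like protein that is attached to other proteins, HERC6 is the main ligase for it in mice, USP18 removes it and also restrains the interferon receptor, and TRIM25 is a ligase that activates RIG-I. Trim30a, which restrains Toll-like receptor signalling, was the member called, at 88.3, 84.4 and 69.2 CPM in the young and 53.3, 41.4 and 41.4 CPM in the aged libraries. Its groups were separated by more than their spread, 1.78-fold in the means (log2 fold change -0.82 ± 0.13 SE, limma adjusted p = 8.15e-05). It shares its 3' end with Trim30d, and the sum of both genes was 86.0 ± 10.7 in the young against 47.8 ± 5.70 CPM in the aged libraries (SD, n = 3 per group).

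Herc6 and Trim25 were lower in all aged libraries than in any young one without being called. Herc6 stood at 15.2 ± 0.803 against 10.5 ± 1.56 CPM (SD, n = 3 per group, limma adjusted p = 0.0911) and Trim25 at 57.9 ± 2.57 against 48.1 ± 5.98 CPM (SD, n = 3 per group, limma adjusted p = 0.112). Isg15 itself was at 12.6, 8.61 and 7.68 CPM in the young and 8.19, 7.28 and 6.12 CPM in the aged libraries. Its groups overlapped, since Aged replicate 1 lay above Young replicate 3, and the log2 fold change interval was -0.92 to 0.21 (limma adjusted p = 0.359). Usp18 was near the floor at 7 reads against 16, at 0.869, 1.44 and 0.384 CPM in the young and 0, 5.37 and 0.941 CPM in the aged libraries, so that Aged replicate 2 alone set its aged mean.

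Parp9, Parp14 and Dtx3l were all called lower in aged cells (12.5% of all tested genes were called lower). PARP9 and DTX3L form a complex of an ADP-ribosyltransferase and a ubiquitin ligase that adds to interferon-dependent transcription, and their genes lie head to head on chromosome 16. Dtx3l was at 193, 179 and 184 CPM in the young and 120.4, 97.0 and 94.1 CPM in the aged libraries. The aged libraries were all well below the young ones, 1.79-fold in the means (log2 fold change -0.84 ± 0.10 SE, limma adjusted p = 2.14e-06).

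Parp9 was at 109, 91.5 and 124 CPM in the young and 77.8, 67.1 and 73.9 CPM in the aged libraries. Its young libraries were the more spread, and the lowest of them was still above the highest aged one, 1.49-fold in the means (log2 fold change -0.56 ± 0.11 SE, limma adjusted p = 0.000882). The exons of Parp9 and Dtx3l overlap on opposite strands at their starts and not at the 3' ends that were read. Parp14, an ADP-ribosyltransferase that modulates STAT signalling, was at 71.7, 72.5 and 70.3 CPM in the young and 58.4, 54.4 and 59.3 CPM in the aged libraries. It was lower in every aged library, with the smallest change called among the members, 1.25-fold (log2 fold change -0.31 ± 0.10 SE, limma adjusted p = 0.0306). That call was lost with DESeq2 (adjusted p = 0.0817) and without any 1 of the libraries except Aged replicate 3 (limma adjusted p = 0.0508 to 0.0989). Exons of Parp14 overlap the gene model Gm49730 on the same strand.

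Epsti1 and Ifitm3 were the most highly counted members; Epsti1 fell and Ifitm3 was not called, and the difference between them was not tested. Epsti1, an interferon-induced gene whose biochemical function is little known, was at 576, 617 and 552 CPM in the young and 341, 337 and 385 CPM in the aged libraries. The highest aged library was far below the lowest young one. The means were 582 ± 32.9 against 354 ± 26.5 CPM (SD, n = 3 per group), 1.64-fold apart (log2 fold change -0.71 ± 0.07 SE, limma adjusted p = 2.78e-07). Ifitm3, a membrane protein that blocks the entry of enveloped viruses, was at 697, 697 and 842 CPM in the young and 747, 707 and 635 CPM in the aged libraries. Those groups overlapped, and the log2 fold change interval of -0.25 to 0.06 was narrow (limma adjusted p = 0.373). Without these 2 genes the summed level of the members was 1803 to 1870 CPM in the young and 1177 to 1305 CPM in the aged libraries.

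Of the other membrane and secreted proteins, Rtp4 fell. Rtp4, a chaperone of receptors that also restrains flavivirus replication, was at 3.04, 5.03 and 5.0 CPM in the young and 1.54, 0.767 and 1.41 CPM in the aged libraries. All aged libraries were lower, on 34 reads against 8 in all, and the CPM means differed 3.52-fold (log2 fold change -1.25 ± 0.38 SE, limma adjusted p = 0.0175). The call was lost with DESeq2 (adjusted p = 0.079) and on leaving out Young replicate 2, Young replicate 3 or Aged replicate 2 (limma adjusted p = 0.0629 to 0.0814). Exons of Rtp4 overlap the gene model Gm45338 on the same strand.

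Bst2, which encodes tetherin and holds budding virus on the cell surface, was at 13.5, 21.2 and 25.4 CPM in the young and 29.2, 19.9 and 16.0 CPM in the aged libraries. The groups covered nearly the same range (log2 fold change interval -0.38 to 0.61, limma adjusted p = 0.768). Lgals3bp, a secreted galectin-binding glycoprotein, stood at 124 ± 10.2 against 105 ± 12.3 CPM (SD, n = 3 per group) with overlapping groups (limma adjusted p = 0.0800). It was called lower with TMM, RLE or upper-quartile scaling, edgeR, limma-voom and without Aged replicate 1 (adjusted p = 0.0287 to 0.0381).

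The PML nuclear body components Sp100 and Pml act in intrinsic defense against DNA viruses, and Sp100 fell. It was at 177, 188 and 164 CPM in the young and 117, 125 and 117 CPM in the aged libraries. The groups were tight and apart, 1.48-fold in the means (log2 fold change -0.56 ± 0.08 SE, limma adjusted p = 4.8e-05). The last 300 bases of Sp100 transcripts share a run of at least 50 bases with other genes, so some of its reads may be of uncertain origin. Pml was at 49.8 ± 2.48 against 43.7 ± 3.08 CPM (SD, n = 3 per group), with groups that overlapped at their edges (limma adjusted p = 0.280).

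Xaf1, which promotes apoptosis by opposing XIAP, was at 14.3, 16.5 and 16.5 CPM in the young and 7.68, 6.52 and 9.88 CPM in the aged libraries. It fell 1.97-fold in CPM, with groups apart (log2 fold change -0.91 ± 0.23 SE, limma adjusted p = 0.00582). Like Sp100, Xaf1 shares a run of at least 50 bases at its 3' end with other genes. Ifi27, a mitochondrial protein, was at 99.99, 101 and 89.1 CPM in the young and 74.8, 69.0 and 67.8 CPM in the aged libraries. The groups were again apart, by 1.37-fold (log2 fold change -0.45 ± 0.10 SE, limma adjusted p = 0.00204), and Ifi44 had 2 reads against 1.

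Nmi and Ifi35 encode partner proteins that bind each other, and neither was called. Nmi was at 53.8 ± 1.40 against 48.8 ± 4.78 CPM (SD, n = 3 per group) with overlapping groups (limma adjusted p = 0.414). Ifi35 was at 17.4, 16.9 and 19.2 CPM in the young and 21.5, 26.8 and 21.6 CPM in the aged libraries. It was the single member higher in every aged library than in any young one, 1.31-fold in the means, with a log2 fold change interval of -0.01 to 0.74 that includes 0 (limma adjusted p = 0.137).

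The share of members called lower was larger at higher levels, as it was among all genes. Of the 6 members with a mean of 1 to 5 CPM, 1 fell (7.65% of all genes at that level), and of the 8 at 5 to 20 CPM, 3 fell (9.03%). At 20 to 100 CPM, 8 of 15 fell (12.7% of all genes), and at 100 CPM and more, 5 of 7 (23.6%), the exceptions being Ifitm3 and Lgals3bp. Of the 17 members called lower, 11 had CPM means at least 1.5-fold apart, and 3 (Samhd1, Irf7 and Rtp4) at least 2-fold.

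**Figure D3:**
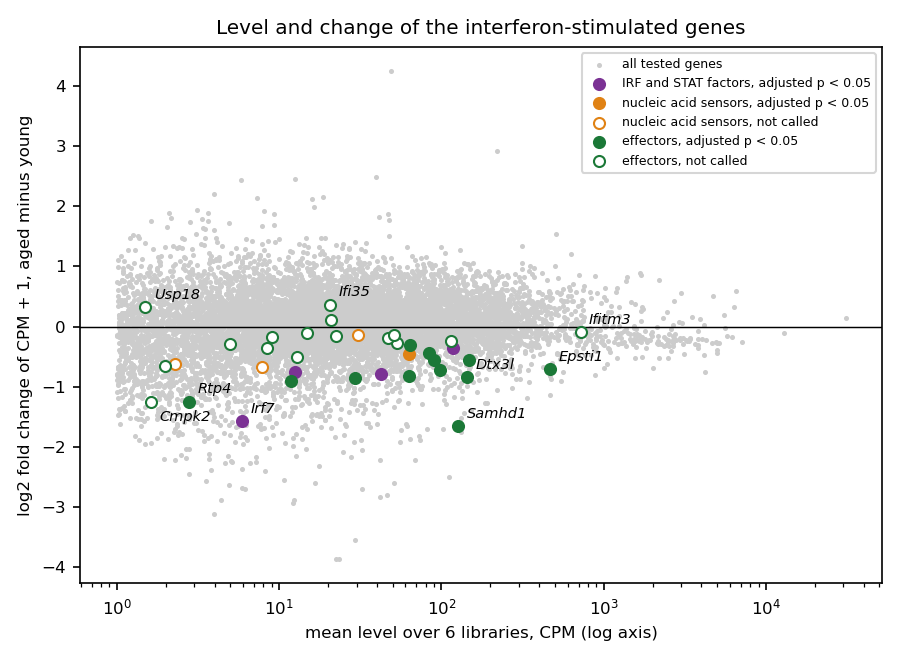
Each colored point is a tested member and each gray point another tested gene, with its mean CPM over the 6 libraries on a log x axis and its log2 fold change (aged minus young, on CPM + 1) on the y axis. Filled points passed an adjusted p of 0.05 in limma, and 5 of the 7 members at 100 CPM or more are filled.

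Other genes of the pathway were read from lists drawn up by role, though with earlier results of these data known. They held 113 distinct genes, of which 84 were tested, 27 fell and 8 rose, beside 12.5% lower and 16.2% higher over all tested genes. Of 18 type I interferon genes, 17 had no read in any library and the other, Ifnk, had 1 read, in Aged replicate 3. Thus no read was assigned to interferon alpha or beta at this depth. Most interferon alpha genes share a 3' end with others of the family, while Ifnb1 does not. How reads from such shared ends were counted was not given, so the zeros of those alpha genes are uncertain. Of the 5 tested receptor genes, 2 fell. Ifnar2, the receptor chain that binds interferon most tightly, was at 72.6, 61.0 and 58.8 CPM in the young and 35.9, 29.1 and 32.5 CPM in the aged libraries. The aged libraries were all below the young ones, 1.97-fold in the means (log2 fold change -0.96 ± 0.13 SE, limma adjusted p = 1.9e-05), although its exons overlap the gene model Gm21970 on the same strand.

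Ifnar1, the other chain, was at 19.6, 23.3 and 18.4 CPM in the young and 18.4, 17.3 and 16.9 CPM in the aged libraries. It was not called (log2 fold change interval -0.58 to 0.18, limma adjusted p = 0.445). Ifnar1 transcripts share a run of at least 50 bases at the 3' end with other genes. Ifngr1, the ligand-binding chain of the interferon gamma receptor, fell 1.70-fold, at 311 ± 11.9 against 183 ± 7.79 CPM (SD, n = 3 per group, limma adjusted p = 2.13e-07). Its 3' end shares a run of at least 50 bases with other genes.

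Among the kinases and partner factors named here, Irf2 and Jak2 fell and Irf8 rose. Irf2, an antagonist of IRF1, was 1.43-fold lower (log2 fold change -0.51 ± 0.08 SE, limma adjusted p = 0.000142). Jak2, a kinase of the interferon gamma receptor, was 1.44-fold lower (limma adjusted p = 0.0201), a call lost without Young replicate 2 (limma adjusted p = 0.0994) or Aged replicate 2 (limma adjusted p = 0.109).

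Irf8, a factor of myeloid cells that is also induced in activated CD8 T cells, was at 94.8, 76.5 and 101 CPM in the young and 163, 160.2 and 163 CPM in the aged libraries. It rose 1.78-fold, with every aged library above every young one (log2 fold change 0.84 ± 0.10 SE, limma adjusted p = 3.79e-06). The summed macrophage markers overlapped between the groups, at 11.1 to 17.4 CPM in young and 8.19 to 18.8 CPM in aged libraries, and 7 of the 10 had no read. Of the others, Cd68 was lower in aged cells, at 14.3 against 8.28 CPM. Cd14 had 3 reads in the young and 11 in the aged libraries, and Csf1r 0 and 15, all in Aged replicate 3. The part of other cells in the level of Irf8 was not tested. Jak1 was at 649.9, 622 and 627 CPM in the young and 593, 488 and 592 CPM in the aged libraries. It just missed the threshold (log2 fold change -0.19 ± 0.07 SE, limma adjusted p = 0.0518) and was called lower under 11 of the 17 alternatives. Exons of Raver2 on the other strand overlap the last 300 bases of Jak1. Tyk2 transcripts share a run of at least 50 bases at the 3' end with other genes. Tyk2 was at 23.7 ± 0.236 against 21.6 ± 3.68 CPM (SD, n = 3 per group, limma adjusted p = 0.607), and Irf3, the factor that starts interferon transcription, at 22.5 ± 4.57 against 21.6 ± 1.66 CPM (SD, n = 3 per group, limma adjusted p = 0.889), both with overlapping groups.

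**Figure D4:**
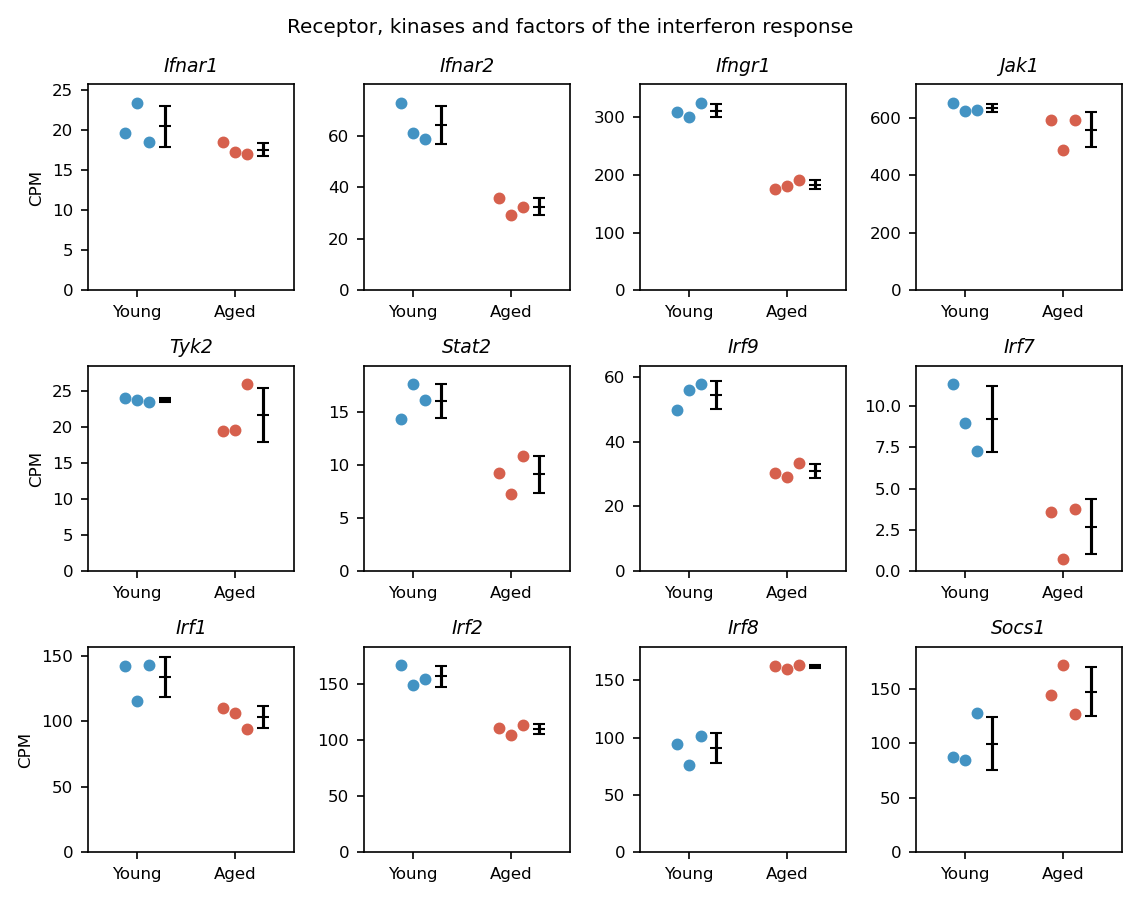
CPM of 12 genes of the receptor, kinase and factor chain in each library, with the y axis of each panel from 0. Points are libraries, and the bars give the mean and SD of 3 libraries. Ifnar2, Ifngr1, Stat2, Irf9, Irf7, Irf1 and Irf2 were called lower in aged cells, Irf8 and Socs1 higher, and Ifnar1, Jak1 and Tyk2 were not called.

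Of 9 tested brakes on interferon signalling, 1 fell and 2 rose, shares near those of all tested genes (12.5% lower and 16.2% higher). Socs1, which inhibits JAK kinases, was at 87.8, 84.4 and 128 CPM in the young and 144, 172 and 127 CPM in the aged libraries. It rose 1.48-fold in the means (log2 fold change 0.57 ± 0.13 SE, limma adjusted p = 0.00285), while Young replicate 3 lay just above Aged replicate 3. Socs3, of the same family, was 1.56-fold higher (limma adjusted p = 0.00883), a call lost without Aged replicate 2 (limma adjusted p = 0.0573). The phosphatase gene Ptpn6 (SHP-1) was 1.52-fold lower (log2 fold change -0.62 ± 0.15 SE, limma adjusted p = 0.00335).

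Along the path from sensor to interferon gene, 3 of 17 tested genes fell and 2 rose, also near the shares of all tested genes. Cgas, the DNA sensor that makes the messenger cGAMP, was at 14.3, 12.2 and 13.8 CPM in the young and 26.1, 25.3 and 22.6 CPM in the aged libraries. It rose 1.83-fold, with groups apart (log2 fold change 0.83 ± 0.18 SE, limma adjusted p = 0.00190). Exons of Gm8093 on the other strand overlap the last 300 bases of Cgas, which leaves its value uncertain. STING, the receptor of cGAMP, is encoded by Tmem173, which was at 87.4, 112 and 118 CPM in the young and 74.8, 82.4 and 82.8 CPM in the aged libraries. Tmem173 fell 1.32-fold (log2 fold change -0.39 ± 0.11 SE, limma adjusted p = 0.0128), a call lost without Young replicate 2 or 3 or without Aged replicate 1 (limma adjusted p = 0.0579 to 0.0675).

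Mavs, the adaptor of RIG-I and MDA5, was at 16.5 ± 3.73 against 14.9 ± 2.25 CPM (SD, n = 3 per group) with overlapping groups (limma adjusted p = 0.740). Ikbke, a kinase that activates IRF3 and IRF7, was 2.20-fold lower (log2 fold change -1.01 ± 0.25 SE, limma adjusted p = 0.00454). Ticam1, the Toll-like receptor adaptor TRIF, was 1.72-fold lower (limma adjusted p = 0.0172), a call lost without Young replicate 2 or 3 or without Aged replicate 3 (limma adjusted p = 0.0624 to 0.1). Rnaseh2b, a subunit of the nuclease that removes ribonucleotides from DNA, was 1.58-fold higher (limma adjusted p = 0.00480).

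A further list of 52 interferon-stimulated genes outside the 43 had 45 tested genes, of which 18 fell and 3 rose, with a median log2 fold change of -0.31. Over all tested genes, 12.5% were called lower and 16.2% higher. Ifi27l2a, a paralog of Ifi27, was at 32.2, 26.9 and 30.7 CPM in the young and 7.17, 4.60 and 4.24 CPM in the aged libraries. It fell 5.61-fold (log2 fold change -2.31 ± 0.23 SE, limma adjusted p = 4.54e-07), a larger log2 difference than the -0.45 of Ifi27 itself, although the 2 differences were not tested against each other. Ifit1bl1, an IFIT family gene, had 71 reads in the young and 4 in the aged libraries (log2 fold change -2.64 ± 0.36 SE, limma adjusted p = 2e-05).

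Phf11b was 3.09-fold lower (limma adjusted p = 1.19e-05) and shares its 3' end with other Phf11 genes, which leaves its value uncertain. Mndal, of the p200 family of DNA-binding proteins, was 2.45-fold lower (limma adjusted p = 3.84e-07) and overlaps Ifi203 on the same strand, with the same uncertainty. The genes that rose were Tent5a, a poly(A) polymerase, 1.73-fold (limma adjusted p = 3.55e-05), Ly6e, a surface protein that restricts coronavirus entry, 1.31-fold (limma adjusted p = 6.06e-05), and Pnpt1, a mitochondrial RNA exonuclease, 1.66-fold (limma adjusted p = 0.0303). The call of Pnpt1 was lost with DESeq2 (adjusted p = 0.176), without the level filter (limma adjusted p = 0.0551) and on leaving out Young replicate 1, Young replicate 3, Aged replicate 2 or Aged replicate 3 (limma adjusted p = 0.0505 to 0.129).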

How the data were processed

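RNA from 6 CD8 T cell cultures was sequenced with the QuantSeq kit, which reads the 3' end of transcripts, so values do not grow with gene length, per the labels' protocols. The authors deposited CPM for 25655 gene identifiers per library. The submitters' processing notes name the build GRCm38 (mm10). Aligner, counting and use of strand were not given in the sources used here, so overlapping genes on either strand cannot be told apart. 100% of the values were whole multiples of 1 read within 0.001 reads, and whole reads were recovered from these steps. A gene table gave symbols for 25599 identifiers, and 1 identifier with a blank value was left out. The file of Aged replicate 2 has a column named for replicate 3. It was used as replicate 2, as the file record assigns it. Replicates differed by more than sampling noise (chi-square per degree of freedom 1.72 to 2.90).

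The test was limma 3.58.1 (R 4.3.3) with an intensity trend, two-sided, fitted to log2(CPM + 1) of genes whose mean reached 1 CPM, with Benjamini-Hochberg adjustment over all of them. Log2 fold changes are on that scale, which understates changes of low genes, and folds in CPM are ratios of group means. The member list, the pathway lists and the markers were chosen with earlier results of these data known. Values in every library are given for members that passed the test and for the IRF, STAT and sensor members. From the pathway lists, a fixed set of genes was always named, of which 1 is not reported here, and otherwise at most 4 called genes per list and direction, by size of change among those with groups apart. Other values by library were chosen after they were seen. The alternatives used the recovered reads in edgeR 4.0.16, limma-voom and DESeq2 1.42.0, scaling by upper quartile, TMM or RLE, a minimum of 5 CPM or none, pseudocounts of 0.1 and 5, a block for the replicate number, and 1 library fewer. Overlaps with other genes were read from GENCODE gene models of the same build. PCR reads are not independent molecules, so floors cover counting error only.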

Additional observations from a re-analysis of the deposited data

How the results depend on the processing

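Over the 17 alternatives, 14 to 19 members were called lower and 0 higher. Of the 17 members called lower, 13 kept the call in every setting that tested them, and Irf1, Parp14, Rtp4 and Stat2 lost it in at least 1, as given with each gene, and the cause was not tested. Cmpk2, Ifih1 and Lgals3bp were called lower in at least 1 alternative. No called gene changed direction. Among members that were not called, the log2 fold change crossed 0 for Usp18 (-0.11 to 1.25), Bst2 (-0.13 to 0.30), Zbp1 (-0.24 to 0.06) and Adar (-0.17 to 0.01), and of the other genes named in the text for Irf3 (-0.18 to 0.10). The median log2 fold change of the tested members was -0.53 with TMM scaling, -0.54 with edgeR, -0.54 with DESeq2, -0.54 with limma-voom and -0.37 with a pseudocount of 5, which shrinks the change of low genes by construction. Leaving out 1 library at a time gave 14 to 18 members lower, 0 higher and a median of -0.51 to -0.43, with 20 to 25 pathway genes lower and 6 to 9 higher. In those fits 1011 to 1207 of all tested genes were called lower and 1322 to 1582 higher. Over all genes, 1701 were called higher and 1313 lower in the limma test, but the balance turned to 1432 and 1549 with TMM, 1451 and 1532 with RLE, 1465 and 1497 with upper-quartile scaling, 1443 and 1557 with edgeR, 1435 and 1520 with limma-voom, and 952 and 1017 with DESeq2. The cause of the lower counts with DESeq2 was not tested.

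The labels give both groups replicate numbers 1 to 3 without saying that a number marks a shared batch. The deviations of same-numbered libraries had correlations of 0.0209, 2e-04 and 0.0028, so the numbers were not taken as pairs. With the replicate number as a block, 18 members were called lower, beside 1336 of all tested genes lower and 1725 higher. At this depth 7 of the 43 members had too few reads to test.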
